A study of Setaria italica with 24 samples.

Results

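The genes described here are the 41 foxtail millet genes that were listed in the deposited table of the landrace Hanevalval, were listed in neither the TT8 nor the ISE36 table, and had a mean value of at least 20 over the 8 Hanevalval libraries. They were chosen by measured values, namely which tables list a gene and its mean level in Hanevalval, so their presence and their levels in that line are a description and were not tested. The Hanevalval table lists 25168 genes, and the 3 tables together list 26785. At any mean level 299 genes were listed for Hanevalval alone, of which the 41 are the better detected ones. The same rule chose 62 genes for TT8 and 120 for ISE36. A missing entry means few reads in a line and does not say that the gene is missing from that line. Every listed gene had at least 6 reads in at least 2 libraries of its line, and the lowest second-highest read number among listed genes was 6 in each table. If this minimum alone decided the listing, a gene left out had at most 5 reads in at least 7 of a line's 8 libraries. Counts of genes left out are not given, so this limit is inferred. In value, 5 reads equal 4.26 to 5.92 in TT8 and 4.14 to 4.97 in ISE36.

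Root RNA was sequenced from 3 lines, the landraces Hanevalval and ISE36 (spelled ICE36 in the library labels) and the Taiwan cultivar TT8, giving 24 libraries, 4 per line and treatment. AMF-treated plants received the arbuscular mycorrhizal fungus (AMF) Claroideoglomus etunicatum, mock-treated plants did not, and roots were harvested at 6 weeks post inoculation. Results come from the 8 Hanevalval libraries, 4 per treatment, since the 41 genes have values there only. How the Hanevalval seed was propagated, and how many plants entered a library, is not given in the sources used here. Values are read counts divided by a size factor per library and are called normalized counts. They are not divided by gene length, so a higher value of one gene than of another does not mean more transcripts.

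In arbuscular mycorrhizal symbiosis (AMS) the fungus grows inside root cortical cells and forms branched arbuscules, across which the host takes up phosphate and gives lipids and sugars in return. Host genes that work at the arbuscule are expressed mainly where the fungus has colonized, so their transcript levels follow the extent of colonization in a root sample. Plant lines of one species also differ in which genes they carry and transcribe, and reads are counted only where they align to the gene models of the reference genome. None of the 41 identifiers was matched to a named gene by the reference tables (0 of 41), so no function, position or sequence is given for them and they are called by their identifiers.

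Reads assigned to genes ranged from 15013564 to 19219211 per Hanevalval library, from 16543884 to 19557223 in TT8 and from 19140967 to 23333517 in ISE36. The tissue label could not be checked against root markers, because no product names were matched. The treatment label was compared with 11 AMS-conserved genes, used here as colonization markers. All of them are genes that the paper reports as induced in these same Hanevalval libraries. Genes of its list that it reports as lowered in Hanevalval were not included. A higher sum with AMF treatment was therefore built into the choice, and is not an independent check of the label. The summed normalized count of the 11 genes was 107, 91.1, 367 and 233 in mock-treated libraries 1 to 4. It was 6208, 757, 2182 and 2304 in AMF-treated libraries 1 to 4. In this sum every AMF-treated library was above every mock-treated library, and mock-treated libraries 3 and 4 were above mock-treated libraries 1 and 2. Taken singly, 9 of the 11 genes had all AMF-treated libraries above all mock-treated ones. Not every gene followed the order within the mock-treated group. STR2 (SETIT_003786mg) had 21.7, 20.9, 4.66 and 3.24 in mock-treated libraries 1 to 4.

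The summed normalized count of the 41 genes ranged from 4906 to 6280 per library. The median of the 41 means was 43.8, beside 277 over the 20943 Hanevalval genes with a mean of at least 20. SETIT_026287mg alone had a mean of 1797, and 23 of the 41 genes had at least 6 reads in all 8 libraries. Others lacked reads in some libraries, and 9 genes had 0 reads in mock-treated library 1, 4 in mock-treated library 2, 0 in mock-treated library 3 and 4 in mock-treated library 4. In AMF-treated libraries 1 to 4 the numbers with 0 reads were 3, 1, 1 and 2. A count of 0 allows up to 3 reads, which is a value of 2.80 to 3.42 in these libraries. Such limits cover counting error only. No gene was at 0 in all libraries of a treatment (0 of 41). At the lower end of the rule, SETIT_004990mg and SETIT_032065mg each had a mean of 20.4 and SETIT_000888mg of 20.1, while the first genes left out were SETIT_028510mg at 19.2, SETIT_020135mg at 17.4 and SETIT_011815mg at 16.9.

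**Figure D1:**
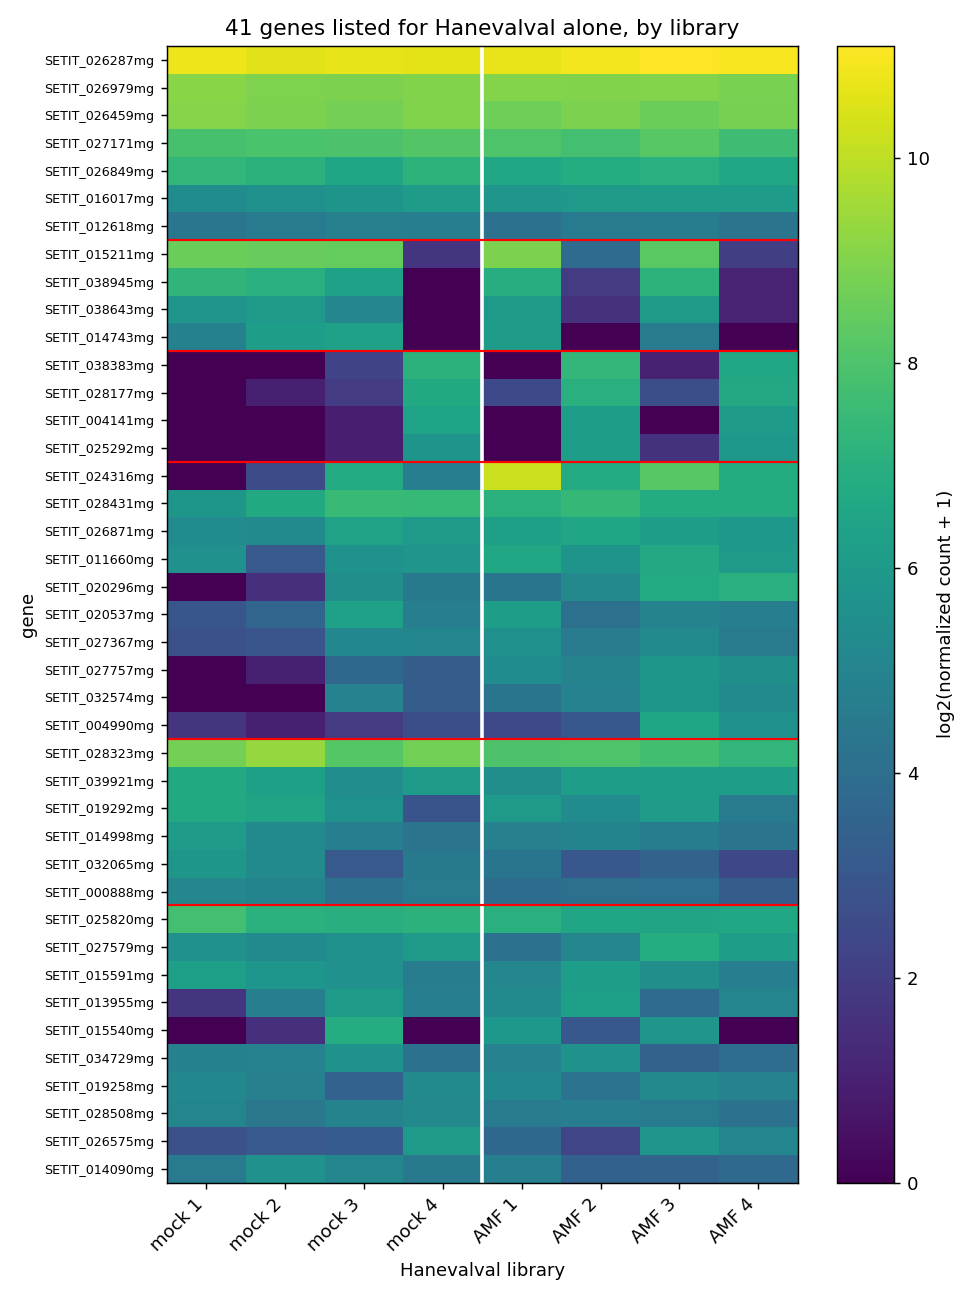
Heat map of the 41 genes (rows) in the 8 Hanevalval libraries (columns), where colour gives log2(normalized count + 1) and the white line separates mock-treated from AMF-treated libraries. Red lines separate, from top to bottom, 7 steady genes, 4 genes low and 4 genes high in mock 4, AMF 2 and AMF 4, 10 genes lowest and 6 genes highest in mock 1 and mock 2, and 10 others.

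The median SD of log2(normalized count + 1) over the 8 libraries was 1.08 for the 41 genes and 0.47 for all genes with a mean of at least 20. These medians, and the shares of steady genes and of genes with a wide gap given next, are not matched for level, and the 41 genes had lower means. By pattern, described after the values were seen, they fell into 7 steady genes, 8 genes with a wide gap between libraries, 10 that were lowest and 6 that were highest in mock-treated libraries 1 and 2, and 10 others, as the heat map by library shows.

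The 7 steady genes had a highest library at most 2 times the lowest. They made up 17.1% of the 41, whereas 33.3% of all genes with a mean of at least 20 met this bound. SETIT_026287mg had normalized counts of 1792, 1540, 1655 and 1602 in mock-treated libraries 1 to 4 and of 1691, 1876, 2176 and 2046 in AMF-treated libraries 1 to 4. The treatments overlapped for this gene, since AMF-treated library 1 lay below mock-treated library 1. SETIT_026979mg ranged from 462 to 556, SETIT_026459mg from 384 to 546 and SETIT_027171mg from 202 to 292, with both treatments in each range. The remaining steady genes were SETIT_026849mg at 93.3 to 163, SETIT_016017mg at 41.0 to 68.3 and SETIT_012618mg at 16.4 to 27.0. Of these 7 genes, SETIT_026979mg had the narrowest range, with a highest library 1.21 times the lowest.

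Of the 7 steady genes, 4 stood close together in the Hanevalval table, along with SETIT_026871mg, which was not steady. In the longest stretch of consecutive rows listed for Hanevalval alone there were 7 genes, in the order SETIT_027635mg, SETIT_026979mg, SETIT_028615mg, SETIT_026871mg, SETIT_026287mg, SETIT_026849mg and SETIT_026459mg. The first and the third of these missed the mean of 20, with means of 11.3 and 4.13. The mean normalized counts of the other genes were 506 for SETIT_026979mg, 65.5 for SETIT_026871mg, 1797 for SETIT_026287mg, 123 for SETIT_026849mg and 456 for SETIT_026459mg. SETIT_026871mg was the least even of them, with 39.9, 38.0, 83.9 and 61.5 in mock-treated libraries 1 to 4 and 77.8, 89.4, 73.5 and 60.1 in AMF-treated libraries 1 to 4. The genes in the rows on either side were listed in every line. SETIT_028220mg, before the stretch, had a mean of 34.5 in Hanevalval, 57.5 in TT8 and 51.3 in ISE36, and SETIT_025819mg, after it, had means of 3066, 2478 and 2917. In the TT8 and the ISE36 tables these flanking genes stood in neighbouring rows, with 0 rows between them. That follows largely from how the stretch was chosen, since genes listed in all tables keep the same order. SETIT_026287mg had at least 1485 reads in every Hanevalval library and SETIT_026979mg at least 430, yet neither was listed in either of the other lines.

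**Figure D2:**
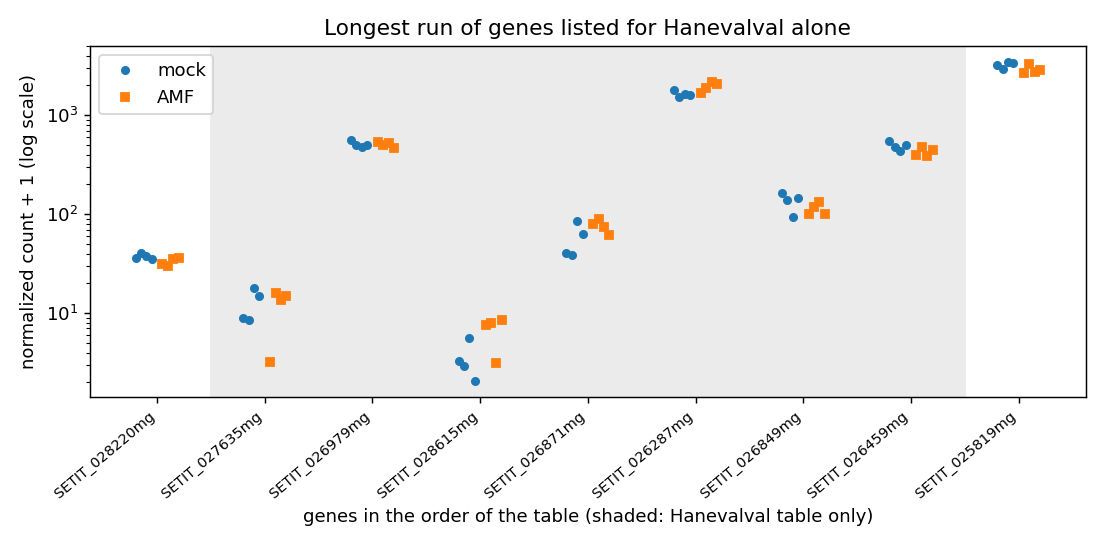
Normalized counts + 1 (y axis, log scale) of the 7 consecutive genes listed for Hanevalval alone (shaded) and of the flanking genes listed in all lines (white), in table order, with 1 point per Hanevalval library (circles mock-treated, squares AMF-treated). Within each of the 5 genes that reached a mean of 20 the treatments overlap, and the means range from 65.5 to 1797.

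The stretch of 7 was the longest of 12 stretches with at least 2 consecutive genes listed for Hanevalval alone at any mean, of which 10 held 2 genes and 1 held 4. The stretch of 4 began with SETIT_025820mg, whose values ranged from 88.2 to 219. Only 1 stretch of 2 was made of genes that both reached a mean of 20. In it, SETIT_015591mg ranged from 24.8 to 75.2 and SETIT_014998mg from 18.3 to 67.3. The 23789 genes listed in all 3 tables stand in the same order in each, but whether that order follows the chromosomes is not stated in the sources used here, and nearness on the genome was not tested.

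A wide gap between libraries, defined as neighbouring values at least 10-fold apart on normalized count + 1 once the libraries are put in order, was found in 8 of the 41 genes (19.5%). Over all Hanevalval genes with a mean of at least 20, 1.21% had such a gap (0.991% in TT8 and 0.199% in ISE36). The 41 genes were chosen from these same values. The share was not computed for genes listed for TT8 or ISE36 alone, so it is not read as particular to the 41. All 8 genes separated the same libraries, namely mock-treated library 4, AMF-treated library 2 and AMF-treated library 4 from the other 5, so the separation ran across the treatments. In 4 of the genes (9.76%) these 3 libraries were low, and in the other 4 (9.76%) they were high. Over all genes with a mean of at least 20, 0.0668% were separated the first way and 0.1% the second way.

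Of the genes low in these 3 libraries, SETIT_015211mg had the highest mean, 238. It had normalized counts of 386, 361, 357 and 2.16 in mock-treated libraries 1 to 4 and of 478, 13.9, 302 and 3.22 in AMF-treated libraries 1 to 4. The values of SETIT_038945mg were 150, 132, 80.2 and 0 with mock treatment and 119, 2.98, 143 and 1.07 with AMF treatment, in the same order of libraries. Both genes were well detected in 5 libraries and almost without reads in the other 3.

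SETIT_038643mg was at 54.7, 61.7, 34.5 and 0 in mock-treated libraries 1 to 4, and at 62.5, 1.99, 60.9 and 1.07 in AMF-treated libraries 1 to 4. SETIT_014743mg was at 28.5, 70.2, 79.3 and 0, and at 67.9, 0, 23.1 and 0, in this order. Across these 4 genes, read numbers ran from 0 to 14 in the 3 low libraries and from 22 to 436 in the other 5, without overlap.

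The genes high in these 3 libraries mirrored that order. SETIT_038383mg had normalized counts of 0, 0, 3.73 and 140 in mock-treated libraries 1 to 4 and of 0, 159, 1.05 and 99.8 in AMF-treated libraries 1 to 4. SETIT_028177mg had 0, 0.95, 2.80 and 107 with mock treatment and 4.38, 129, 5.25 and 101 with AMF treatment. In both genes the highest library was AMF-treated library 2.

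Next, SETIT_004141mg was at 0, 0, 0.93 and 84.1 in mock-treated libraries 1 to 4, and at 0, 71.5, 0 and 69.8 in AMF-treated libraries 1 to 4. SETIT_025292mg was at 0, 0, 0.93 and 51.8, and at 0, 73.5, 2.10 and 59.0, in this order. Read numbers of these 4 genes ran from 48 to 160 in the 3 high libraries and from 0 to 5 in the other 5. Each of the 4 genes reached the mean of 20 through 3 libraries only.

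**Figure D3:**
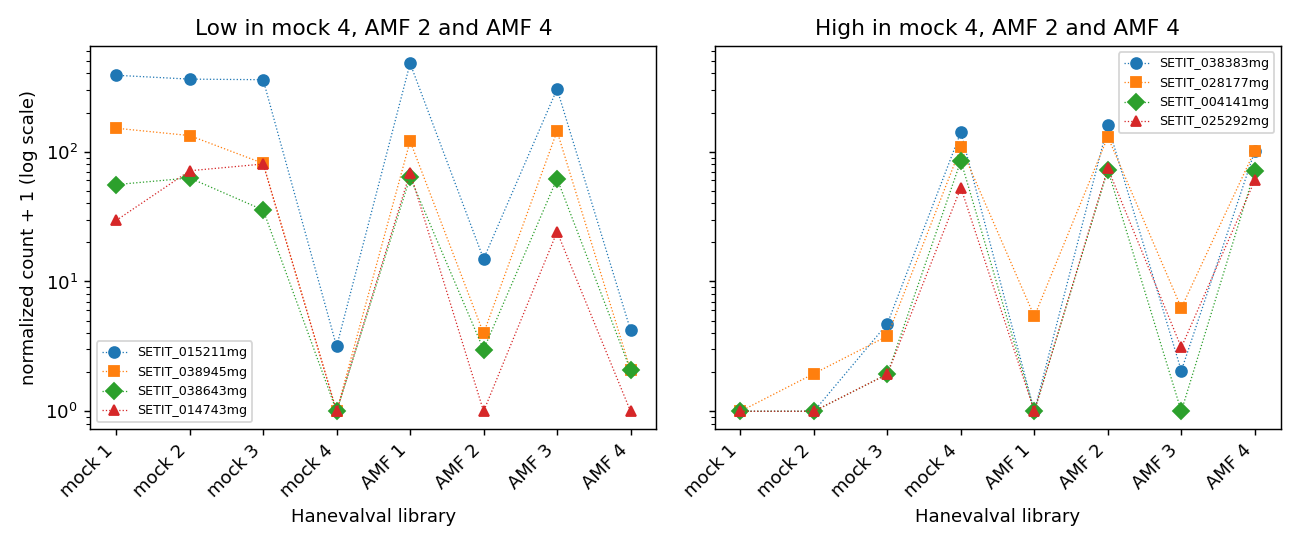
Normalized counts + 1 (y axis, log scale) of the 8 genes with a gap of at least 10-fold, by Hanevalval library (x axis, mock 1 to AMF 4), with 1 point per library and dotted lines joining the points of a gene as a guide. The 4 genes on the left are low in mock 4, AMF 2 and AMF 4 (0 to 14 reads) and the 4 on the right are high there (48 to 160 reads).

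The same separation was seen in genes outside the 41. Over the whole line, 14 genes were low and 21 were high in these 3 libraries by the same bound, including the 4 and 4 described above. Of the 14 low genes, 5 were also listed in TT8 only, 3 in ISE36 only and 2 in both lines. Of the 21 high genes, 4 were also listed in TT8 only, 8 in ISE36 only and 5 in both. Those 3 libraries held 18056344, 18945014 and 18135205 reads on genes, within the range of the others. The summed colonization markers were 233, 757 and 2304 in them. In mock-treated libraries 1 to 3 the sums were 107, 91.1 and 367, and in AMF-treated libraries 1 and 3 they were 6208 and 2182. What separates the 3 libraries from the other 5 was not tested.

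A different order was seen in the genes that were lowest in mock-treated libraries 1 and 2, where the summed colonization markers were also lowest. To these genes are added the steady SETIT_016017mg and the wide-gap SETIT_028177mg. Together, 12 of the 41 genes (29.3%) had mock-treated libraries 1 and 2 below the other 6. Over all genes with a mean of at least 20, 27.4% did. In 6 of the 41 genes (14.6%) both libraries were above the other 6, and 26.2% of all genes with a mean of at least 20 showed this. The share below was thus near the background, and no result about the set is read from it.

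Of the genes lowest in mock-treated libraries 1 and 2, SETIT_028431mg ranged from 58.1 to 176, SETIT_011660mg from 7.59 to 103, SETIT_020537mg from 6.84 to 80.2 and SETIT_027367mg from 5.70 to 46.0. The genes highest in these libraries were SETIT_028323mg, SETIT_039921mg at 42.9 to 105, SETIT_019292mg at 6.47 to 105, SETIT_014998mg, SETIT_032065mg and SETIT_000888mg. The 10 genes with no such order included SETIT_025820mg and SETIT_015591mg, given above. SETIT_027579mg ranged from 16.4 to 114, SETIT_013955mg from 2.28 to 75.5, SETIT_034729mg from 10.5 to 50.6 and SETIT_019258mg from 10.3 to 38.8. SETIT_028508mg ranged from 17.2 to 36.7 and SETIT_026575mg from 3.97 to 60.4.

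SETIT_015540mg was among the most uneven genes within the mock-treated group. It had normalized counts of 0, 1.90, 116 and 0 in mock-treated libraries 1 to 4 and of 59.2, 6.95, 54.6 and 0 in AMF-treated libraries 1 to 4. It was high in mock-treated library 3 and in AMF-treated libraries 1 and 3, and had at most 6.95 in the others. SETIT_020537mg was highest in the same 3 libraries, with 6.84 to 25.9 in the others.

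To ask whether the genes responded to AMS, limma was run on the 4 AMF-treated against the 4 mock-treated libraries, with log2(normalized count + 1) as the measure and Benjamini-Hochberg adjustment over the 24847 genes that had a mean of at least 5. The threshold for a call was 0.05 on the adjusted p together with a 2-fold difference. Of the 41 genes, 0 were called higher and 0 lower in AMF-treated roots by limma. Over all tested genes 1.42% were called higher and 1.41% lower. At an unadjusted p under 0.05 with the same fold, limma had 5 of the 41 higher (12.2%) and 2 lower (4.88%), where all genes had 8.3% and 9.55%. EdgeR on the recovered reads called 0 in either direction (all genes 1.15% higher and 1.93% lower), with 3 of the 41 higher and 3 lower at an unadjusted p under 0.05, beside 6.14% and 11.5% of all genes. DESeq2 on the same reads called 2 higher (4.88%), SETIT_004990mg and SETIT_027757mg, and 1 lower (2.44%), SETIT_028323mg, beside 5.05% and 9.49% of all genes. Without mock-treated library 3, limma called 4 of the genes higher and 2 lower. Over all genes that fit called 1759 higher (7.08%) and 2191 lower (8.82%), where the fit on 8 libraries had called 354 and 350.

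The log2 fold changes of the 41 genes, AMF minus mock, ran from -1.67 to 4.49 on the log2(normalized count + 1) scale. Their median was 0.08, while the median of all tested genes was 0.01. They were positive in 21 genes and negative in 20, and 24 lay within 2-fold of no change. Estimates of genes with few reads in some libraries changed with the model, in either direction. SETIT_024316mg had 4.49 by limma, 3.56 by edgeR and 3.59 by DESeq2. SETIT_004990mg had 2.57, 3.67 and 3.74. The median standard error was 0.60 on the log2 scale for the 41 and 0.31 for all tested genes. For 6 of the 8 genes with a wide gap, the standard error was larger than the size of the log2 fold change.

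**Figure D4:**
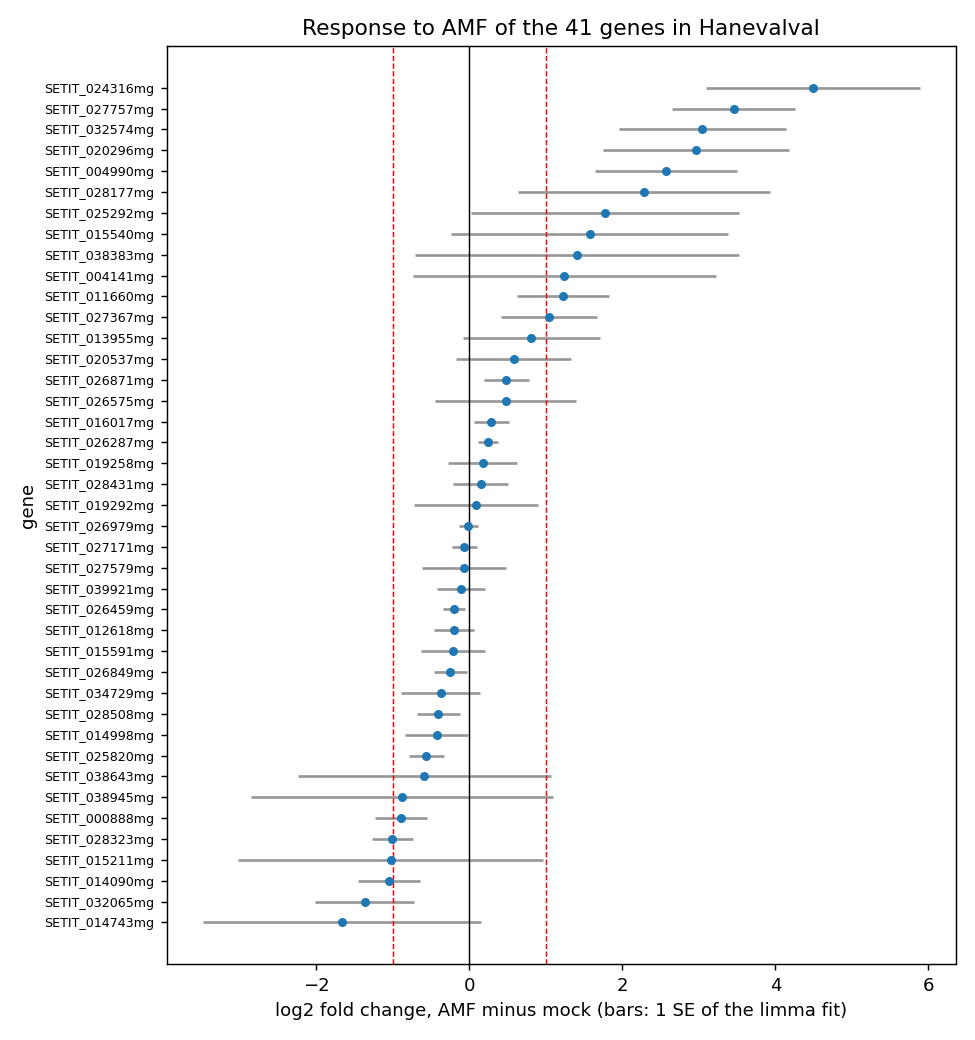
Log2 fold change, AMF minus mock, of each of the 41 genes in Hanevalval (x axis; points are limma estimates on log2(normalized count + 1) from 4 libraries per treatment, bars are 1 standard error, dashed lines mark 2-fold changes). Estimates run from -1.67 to 4.49, and none passed the adjusted threshold.

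The AMF-treated libraries did not overlap the mock-treated ones in 4 genes, 2 higher (4.88%) and 2 lower (4.88%). Over all tested genes 11.6% did not overlap with AMF higher and 9.08% with AMF lower. The 2 higher genes were SETIT_024316mg and SETIT_027757mg, and the 2 lower ones were SETIT_028323mg and SETIT_000888mg.

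SETIT_024316mg had the highest log2 fold change, 4.49 with a standard error of 1.40 (limma adjusted p = 0.0783). Its normalized counts were 0, 4.75, 108 and 25.9 in mock-treated libraries 1 to 4 and 1171, 108, 297 and 112 in AMF-treated libraries 1 to 4. AMF-treated library 2 was above mock-treated library 3 by less than 1 normalized count, and the groups overlapped once values were rescaled to equal library totals. More transcript per cell and more colonized cells cannot be told apart in such bulk root samples. These values lay near those of SiPHT1;9 (SETIT_004288mg), the phosphate transporter gene of the clade induced by AMS. SiPHT1;9 had 1.14, 1.90, 97.0 and 29.1 in mock-treated libraries 1 to 4 and 1475, 103, 302 and 193 in AMF-treated libraries 1 to 4. In both genes AMF-treated library 1 was highest, AMF-treated library 3 came next, and mock-treated libraries 1 and 2 were lowest. SiPHT1;9 was set beside it after the values were seen. Of the other 10 markers, the germin-like gene also had AMF-treated library 1 highest and AMF-treated library 3 next. In 7 markers AMF-treated library 4 came next after AMF-treated library 1, RAM1 was highest in AMF-treated library 3 and the AP2c gene in AMF-treated library 4.

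SETIT_027757mg came closest to the threshold, with a log2 fold change of 3.45 and a standard error of 0.81 (limma adjusted p = 0.0515). It was at 0, 0.95, 12.1 and 8.63 in mock-treated libraries 1 to 4, a mean of 5.43 ± 5.91 (SD, n = 4). It was at 41.6, 29.8, 57.8 and 45.1 in AMF-treated libraries 1 to 4, a mean of 43.6 ± 11.5 (SD, n = 4). The lowest AMF-treated library was above the highest mock-treated one by more than the SD of either group. RAM1 (SETIT_027708mg), a transcription factor gene needed for arbuscule formation in Medicago truncatula, was likewise separated by treatment, with 0, 0, 18.7 and 0 in mock-treated and 85.5, 60.6, 117 and 84.8 in AMF-treated libraries. Of the 11 markers, chosen as induced in these libraries, 9 were separated in this way, while FatM (SETIT_003998mg) and STR2 were not. No shared role of RAM1 and SETIT_027757mg is read from this.

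The next largest estimates overlapped between treatments. SETIT_032574mg had normalized counts of 0, 0, 28.9 and 8.63 in mock-treated and of 18.6, 28.8, 56.7 and 38.6 in AMF-treated libraries, a log2 fold change of 3.05 with a standard error of 1.09 (limma adjusted p = 0.101). SETIT_020296mg had 0, 1.90, 43.8 and 21.6 in mock-treated and 18.6, 36.7, 110 and 130 in AMF-treated libraries, where limma gave 2.96 with a standard error of 1.21 (adjusted p = 0.132). In both genes mock-treated library 3 lay above AMF-treated library 1, the lowest AMF-treated library, and above AMF-treated library 2. In SETIT_020296mg mock-treated library 4, at 21.6, also lay above AMF-treated library 1. Mock-treated library 3 had the highest summed colonization markers of its group. AMF-treated library 1 had the highest of its group too, at 6208. The part of colonization in these values was not tested.

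SETIT_004990mg was uneven within the AMF-treated group. It had 2.28, 0.95, 2.80 and 5.39 in mock-treated libraries 1 to 4 and 4.38, 6.95, 94.5 and 46.2 in AMF-treated libraries 1 to 4, a log2 fold change of 2.57 with a standard error of 0.93 (limma adjusted p = 0.103). AMF-treated libraries 3 and 4 alone were high, and AMF-treated libraries 1 and 2 lay near the mock-treated ones.

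**Figure D5:**
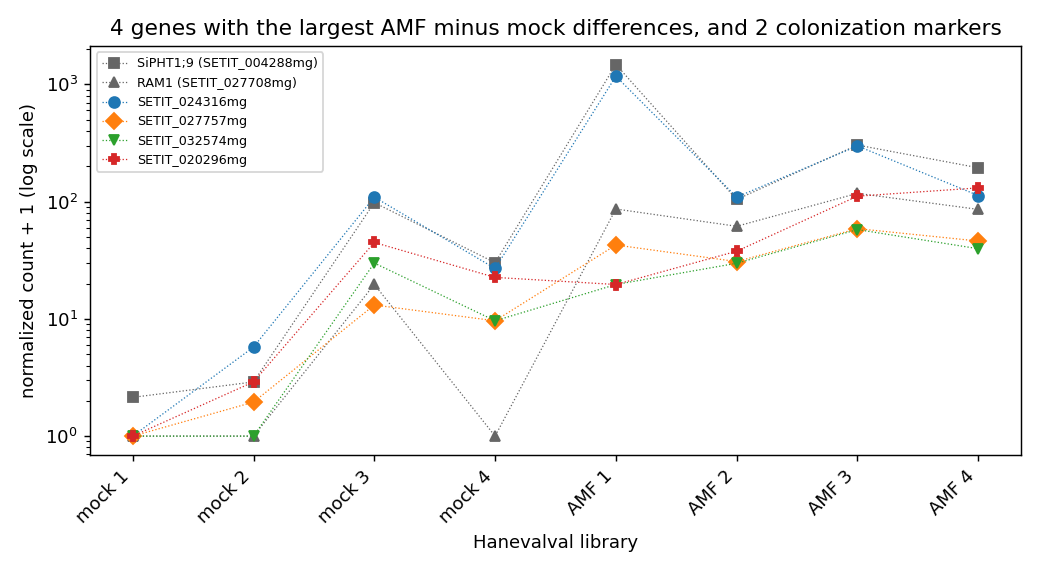
Normalized counts + 1 (y axis, log scale) by Hanevalval library (x axis) of the 4 genes with the largest log2 fold changes (colours) and of the colonization markers SiPHT1;9 and RAM1 (grey), with 1 point per library and dotted lines as a guide. SETIT_024316mg runs from 0 to 1171 and SiPHT1;9 from 1.14 to 1475, both highest in AMF 1.

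In the other direction, SETIT_028323mg combined a high level with no overlap. Its normalized counts were 442, 652, 288 and 423 in mock-treated libraries 1 to 4, a mean of 451 ± 150 (SD, n = 4), and 250, 261, 209 and 157 in AMF-treated libraries 1 to 4, a mean of 219 ± 47.3 (SD, n = 4). The log2 fold change was -1.01 with a standard error of 0.27 (limma adjusted p = 0.0634). SETIT_000888mg had 34.2, 31.3, 16.8 and 23.7 in mock-treated and 14.2, 15.9, 15.8 and 8.59 in AMF-treated libraries, and the groups were separated by less than 1 normalized count. Its log2 fold change was -0.90 with a standard error of 0.34 (limma adjusted p = 0.113).

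The genes with the lowest estimates were otherwise imprecise or overlapping. SETIT_014743mg, one of those with a wide gap, had -1.67 with a standard error of 1.82 (limma adjusted p = 0.538), and SETIT_015211mg had -1.03 with a standard error of 1.99 (limma adjusted p = 0.734), which turned to 0.21 without AMF-treated library 4. SETIT_032065mg had 57.0, 37.0, 7.46 and 21.6 in mock-treated and 18.6, 6.95, 10.5 and 4.29 in AMF-treated libraries, a log2 fold change of -1.37 with a standard error of 0.65 (limma adjusted p = 0.175). Mock-treated library 3 lay among the AMF-treated libraries for this gene. SETIT_014090mg had 22.8, 47.5, 32.6 and 21.6 in mock-treated and 26.3, 9.93, 10.5 and 12.9 in AMF-treated libraries, with an estimate of -1.05 and a standard error of 0.40 (limma adjusted p = 0.117). Only AMF-treated library 1 overlapped the mock-treated libraries there.

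Of the 8 genes with the highest mean, SETIT_024316mg, SETIT_028323mg and SETIT_015211mg had the estimates given above, and the other 5 lay nearer to 0. SETIT_026287mg had a log2 fold change of 0.24 with a standard error of 0.13 (limma adjusted p = 0.233), with means of 1647 ± 108 (SD, n = 4) in mock-treated and 1947 ± 211 (SD, n = 4) in AMF-treated roots. The estimates were -0.02 for SETIT_026979mg, -0.20 for SETIT_026459mg, -0.06 for SETIT_027171mg and 0.15 for SETIT_028431mg. Of these, SETIT_026979mg, SETIT_027171mg and SETIT_028431mg changed sign when mock-treated library 1 or AMF-treated library 4 was left out, so no direction is given for them.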

How the data were processed

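The 41 genes, the gene lists and the tests were chosen with earlier results of these data known. The authors trimmed reads with Trimmomatic 0.38 and aligned them to the S. italica v2.0 genome with HISAT2 2.1.0. Reads were counted per gene with featureCounts 2.0.0, per the paper and the submitters' processing notes. The deposited values are labelled as DESeq2-normalized, and the notes name DESeq2 1.26.0, while the paper names edgeR for normalization and DESeq2 for differential expression. The deposited values are signal: read counts divided by a size factor per library, in 1 table per line. All values were whole multiples of 1 step per library within a tolerance of 1e-06 read, so reads were recovered (100% whole), and 0 columns lacked a sample. DESeq2 size factors recomputed over all 24 libraries matched the steps within a ratio of 0.998 to 1.00. Whether counting used strand, and how reads shared by gene copies were treated, is not given in the sources used here.

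The main test was limma 3.58.1 in R 4.3.3 on log2(value + 1) with a variance trend over the 8 Hanevalval libraries, keeping genes whose mean was 5 or more. The replicates are the numbered libraries of the labels, and p-values measure the spread between them. Libraries within a group were checked for duplicates and none was found (smallest chi-square per gene 6.94 over 36 pairs). EdgeR 4.0.16 and DESeq2 1.42.0 on recovered reads, other pseudocounts, filters and scalings, a replicate block and leaving out single libraries were alternatives. The gap between libraries and the settings with fewer libraries were chosen after seeing the data. The main fit, the replicate block, a pseudocount of 8, edgeR and DESeq2 were tested on simulated data with known changes. The other steps were not tested in this way. Named with values were the 8 genes with the highest mean, the 5 with the largest and the 5 with the smallest log2 fold change, the 3 on each side of the mean of 20, the genes most and least uneven between libraries, and genes in adjacent rows. The other genes are named by pattern. Planned descriptions by genome position, product, length and tissue markers were not carried out, since 0 of the 41 identifiers matched the RefSeq table. Figures were drawn with Python 3.11.15, numpy 2.4.6, pandas 2.3.3 and matplotlib 3.10.9.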

Additional observations from a re-analysis of the deposited data

Results flagged for a closer look

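In 10 of the 82 groups of 4 libraries (41 genes in 2 treatments, 12.2%) the highest or lowest library stood far from the other 3 by Dixon's test. The test flags about 1 group in 20 by chance where values are normally distributed, which normalized counts need not be. The groups share libraries, and the share over all Hanevalval genes was not computed. No excess particular to the 41 genes is therefore read from this number. Mock-treated library 4 was the library in 6 of them. It was low for SETIT_015211mg, at a normalized count of 2.16 where the nearest library had 357. It was high for SETIT_038383mg at 140 (nearest 3.73), SETIT_028177mg at 107 (nearest 2.80), SETIT_004141mg at 84.1 (nearest 0.93), SETIT_025292mg at 51.8 (nearest 0.93) and SETIT_026575mg at 60.4 (nearest 8.39). The first 5 of these genes also had a wide gap between libraries, and in the AMF-treated group, where libraries 2 and 4 share that level, no single library stood apart for them.

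The remaining values were spread over other libraries. SETIT_025820mg was at 219 in mock-treated library 1 (nearest 139), SETIT_011660mg at 7.59 in mock-treated library 2 (nearest 47.9) and SETIT_015540mg at 116 in mock-treated library 3 (nearest 1.90). SETIT_039921mg was at 43.8 in AMF-treated library 1 (nearest 71.5).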

How the results depend on the processing

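Of the 41 genes, limma called 0 higher and 0 lower in AMF-treated roots. A pseudocount of 8, CPM scaling and quantile normalization each called 1 higher, SETIT_027757mg in every case (all genes 1.58%, 1.2% and 1.45%), and DESeq2 called 2 higher and 1 lower. Leaving out single libraries gave 0 to 4 higher and 0 to 2 lower, and each count above 0 came without mock-treated library 3 (SETIT_020296mg, SETIT_032574mg, SETIT_024316mg and SETIT_027757mg higher, SETIT_032065mg and SETIT_028323mg lower). Over all genes the calls moved from 354 higher and 350 lower to 1759 and 2191 without mock-treated library 3, 90 and 33 without AMF-treated library 2, 1 and 0 without mock-treated library 4, and 0 and 0 without any other single library. With the replicate block limma called 2 higher (SETIT_020296mg and SETIT_027757mg) and 1 lower (SETIT_028323mg), and 885 (3.56%) and 982 (3.95%) over all genes. Same-numbered libraries deviated together with correlations of 0.05, 0.17, 0.14 and 0.26 across 20943 genes, not every mock-treated library correlated best with its own number, and the libraries were not treated as pairs. CPM scaling shifted the all-gene median to -0.09 on the log2 scale.

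Genes without overlap between treatments, 2 higher and 2 lower, became 1 higher and 3 lower under CPM scaling (all genes 7.68% and 12.1%). Leaving out single libraries gave 2 to 6 higher (6 without mock-treated library 4, 4 without AMF-treated library 1) and 2 to 5 lower (5 without mock-treated library 3, 4 without AMF-treated library 1), where all genes gave 12.3% to 17.8% higher and 9.88% to 16.8% lower. The number of genes chosen was 80 at a mean of 10, 18 at a mean of 50, 21 when a value of 20 was asked in 6 of 8 libraries, and 3 when a CPM of 20 was asked, a higher bar at this depth. It was 38 to 41 over 7 libraries. A 5-fold gap held 14 genes and a 20-fold gap 5.

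The sign of the log2 fold change was kept in every alternative by 25 of the 41 genes. Over the settings without 1 library, SETIT_026979mg ran from -0.044 to 0.026 (positive without mock-treated library 1 or AMF-treated library 4), SETIT_027171mg from -0.16 to 0.019 and SETIT_015211mg from -2.75 to 0.21 (both positive without AMF-treated library 4), and SETIT_028431mg from -0.19 to 0.34 (negative without mock-treated library 1). In the 5 libraries without mock 4, AMF 2 and AMF 4, the first 3 of these became 0.041, 0.17 and 0.047. Genes near 20 counts rest on few reads in each library, which limits what could be called.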
